A study of Lens culinaris with 50 samples.

Results

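The 50 genes described here had many reads in the embryo of lentil (Lens culinaris) late in its growth and few in it at the start. They were chosen by their mean level in 4 groups of embryo libraries: at least 2000 normalized reads at the late bent stage, at least 10 times the heart stage mean, at least the mature stage mean, and under 100 at the zygote stage. Of the 58243 genes in the deposited table, 2328 reached the late bent minimum, 309 of these also met the heart limit, 158 of those the mature limit and 50 all limits. The rule would have kept the 100 most abundant, so that upper number was never reached. A normalized read is a read assigned to a gene and divided by 1 factor per library.

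The plants were of the type CDC Gold, which is given as the ecotype, and no mutation or treatment beyond emasculation and pollination of the flowers set any group apart. Embryo, seed coat and whole seed were each sampled at 8 embryo stages: zygote and quadrant first, then globular and heart, then torpedo and early bent, and at the end late bent and mature. The unfertilized ovule, which the labels place with the whole seed, made 25 groups of 2 libraries, 50 in all. The seed coat samples were what remained of a seed once its embryo had been taken out by hand, and the age of the seeds in days was not used here. Nothing in the labels says whether the replicates came from separate plants, so a p-value reflects only how far these samples lay apart, which could be technical variation. The libraries held 13019472 to 35634980 reads (median 23945567). In 6 of them fewer than 25% of all genes were at 0, namely both ovule libraries and replicate 2 of the mature embryo and of the torpedo, early bent and mature seed coat. The labelled tissues were not checked against marker genes, because the table pairs no identifier with a name.

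A legume embryo grows first by dividing cells and then by filling them. In the filling phase the cotyledons take up sugars and amino acids that reach the seed through the seed coat, and they lay down storage proteins, starch and other reserves. Transcripts of reserve proteins are known to rise steeply in this phase and to decline as the seed dries. The seed coat is maternal tissue, and the whole seed holds it together with the embryo and whatever endosperm is left. The seed coat samples, as what remained without the embryo, may hold endosperm too. No function is given here for any of the 50 genes, and whether they take part in filling was not tested.

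Membership did not follow abundance closely. The 50 genes ranked between 37 and 2320 among all genes by their late bent embryo mean, and 4 of them were among the 100 most abundant. They held 0.912% and 1.28% of all normalized reads in the 2 late bent embryo libraries. Another 108 genes failed the zygote limit alone. Those 108 held 51.4% and 47.7% of the reads of the same libraries, and 26 of them exceeded 100000 normalized reads, which 1 of the 50 genes did. The 10 most abundant late bent genes were all outside the 50.

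The limits cut through a continuous range of values. Just inside the late bent minimum were Lcu.2RBY.5g062560 with a mean of 2006 normalized reads and Lcu.2RBY.5g023030 with 2029, and just outside were Lcu.2RBY.5g039900 with 1976 and Lcu.2RBY.7g014320 with 1937. Just inside the zygote limit were Lcu.2RBY.6g070810 with 83.6 normalized reads and Lcu.2RBY.2g055380 with 82.7. Just outside it were Lcu.2RBY.3g033100 with 100.2 and Lcu.2RBY.2g012380 with 103, the first of which reached a late bent mean of 81211. The heart limit lay between Lcu.2RBY.1g003390, whose late bent mean was 10.5 times its heart mean, and Lcu.2RBY.3g022610 with 8.28 times. The mature limit lay between Lcu.2RBY.2g089080, whose mature mean was 88.8% of late bent, and Lcu.2RBY.1g016220 with 106%.

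In the embryo, the median of the 50 group means went from 31.5 normalized reads at the zygote stage to 11.3 at quadrant and 3.68 at globular, and then climbed through 12.7 at heart, 148 at torpedo and 950.5 at early bent to 5221 at late bent. At mature it was 2218. The zygote, heart, late bent and mature values chose the genes and are given as a description only. These are bulk samples, in which fewer cells of a type and less RNA per cell cannot be told apart. The onset was taken as the first stage at which a gene's embryo mean reached 100 normalized reads, whether or not the level held. By it, 2 genes had their onset at quadrant, 5 at globular, 6 at heart, 19 at torpedo, 14 at early bent and 4 only at late bent. The zygote limit of 100 allowed no onset at zygote. Some onsets rested on 1 library. Lcu.2RBY.1g059070 had 10 and 210 reads at quadrant, 0 and 1 at globular and 2 and 0 at heart. Lcu.2RBY.2g084200 had 1098 and 7 reads at heart. The late bent stage was the highest embryo stage for 47 genes, and early bent for Lcu.2RBY.7g031630, Lcu.2RBY.1g059070 and Lcu.2RBY.4g001940.

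**Figure D1:**
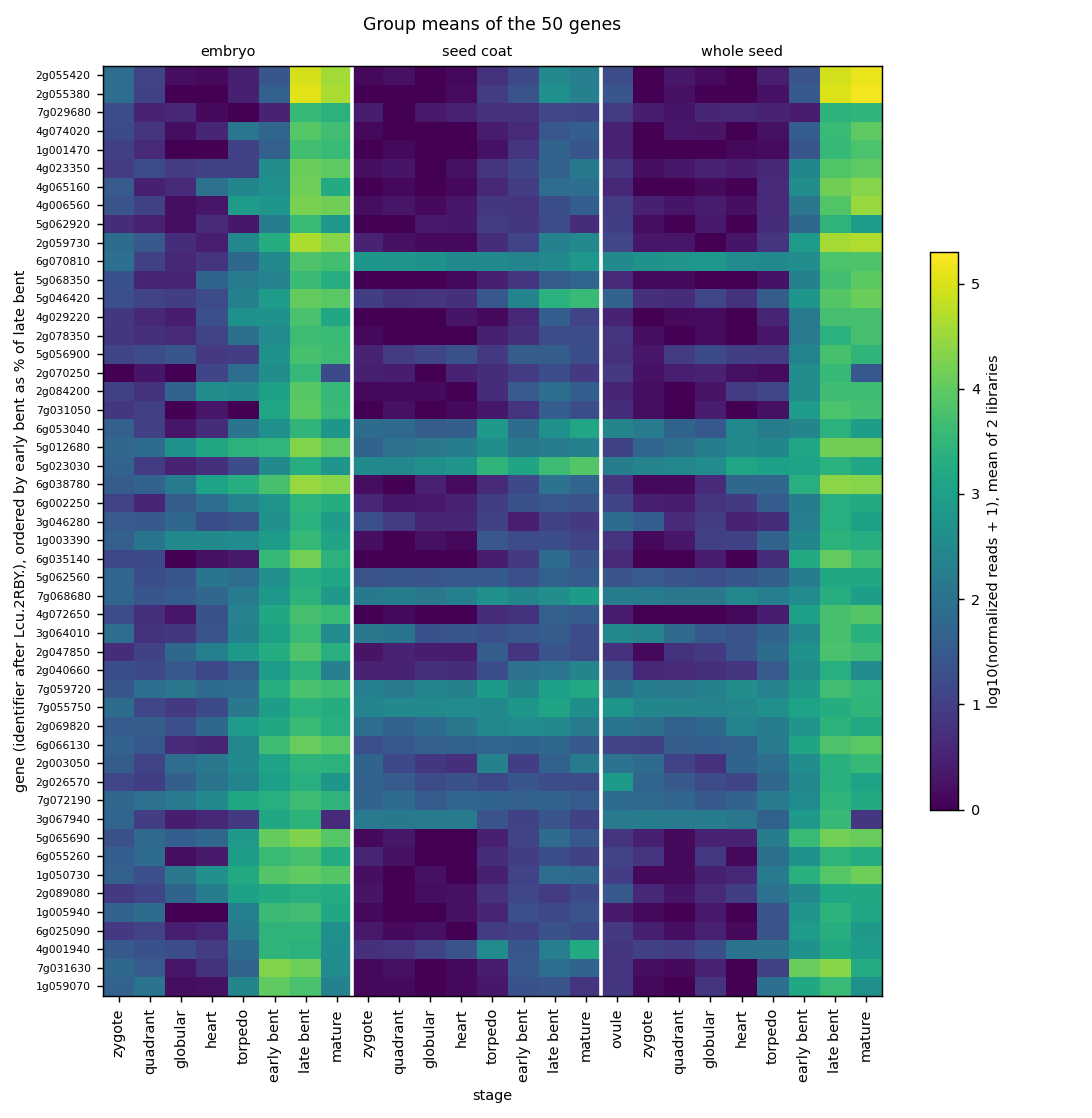
Mean level of each of the 50 genes (rows, ordered by early bent as a percentage of late bent in the embryo) in each tissue and stage (columns), as log10 of the mean of 2 libraries plus 1. Embryo and whole seed brighten together toward late bent, with member medians of 5221 and 3762 normalized reads there, while the seed coat column stays dim for all but a few rows (median 44.4).

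The genes differed widely in how much of their late bent level they had reached one stage before. The early bent mean was a median of 21.2% of the late bent mean, with a range from 0.0273% to 173%. It was below 1% for 5 genes, from 1 to 10% for 11, from 10 to 50% for 24 and over 50% for 10.

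The most abundant member, Lcu.2RBY.2g055380, had 87188 and 138300.3 normalized reads in the 2 late bent embryo libraries, against 25.5 and 62.5 at early bent and none in either heart library. Lcu.2RBY.2g055420 followed with 61718 and 122104 at late bent and 14.8 and 35.5 at early bent. These were the 2 lowest early bent percentages of the set, 0.0390% and 0.0273%, and every late bent library was far above every earlier embryo library. Lcu.2RBY.1g001470 and Lcu.2RBY.7g029680 were the other two genes that reached 100 only at late bent, with early bent means of 41.7 and 2.36 and late bent means of 4906 and 3538.

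Lcu.2RBY.2g059730 was detected earlier and went from 149 and 448 normalized reads at torpedo through 941 and 2944 at early bent to 37557 and 52516 at late bent. Lcu.2RBY.6g038780 was already at 2165 and 185 at heart, libraries that lie far apart, and stood at 4122 and 7365 at early bent and 31324 and 30455 at late bent. Lcu.2RBY.5g012680 behaved alike, with 2071 and 774 at heart, 2541 and 3580 at early bent and 19518 and 20304 at late bent. For these 3 genes both late bent libraries exceeded both early bent ones.

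At the other end stood genes that were near their top by early bent. Lcu.2RBY.5g065690 had 7901 and 14486 normalized reads at early bent and 23509.7 and 14566 at late bent, so that the lower late bent library nearly matched the higher early bent one. Lcu.2RBY.7g031630 had 12198 and 29772 at early bent, overlapping with 18036 and 9224 at late bent. Its mature libraries held 562 and 167. Lcu.2RBY.1g059070 had 9575 and 10978 at early bent, both above its late bent values of 8163 and 3733. These last 2 had the highest early bent percentages, 154% and 173% of late bent.

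**Figure D2:**
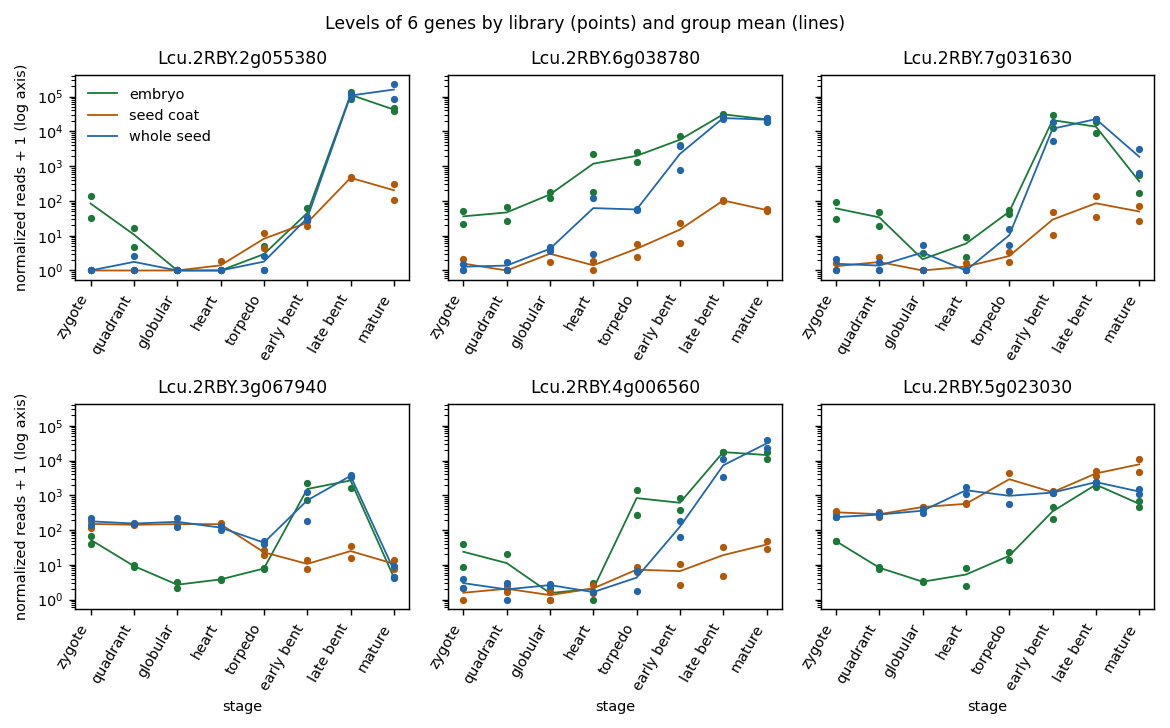
Normalized reads plus 1 (log axis) of 6 genes over the 8 stages in embryo, seed coat and whole seed, with a point for each library and a line through group means. Lcu.2RBY.2g055380 jumps between early and late bent, Lcu.2RBY.6g038780 climbs from the heart stage on, Lcu.2RBY.7g031630 and Lcu.2RBY.3g067940 drop at mature in embryo and whole seed, Lcu.2RBY.4g006560 stays high, and Lcu.2RBY.5g023030 has more reads in seed coat than in embryo at late bent.

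The embryo stages that played no part in the choice were tested with limma on log2(normalized reads + 1) in a model of all 25 groups, and a gene was called at a change of 2-fold or more with an adjusted p below 0.05 (Benjamini-Hochberg, 29440 tested genes). All 50 genes passed the filter on low values, which their late bent embryo levels alone met. From globular to torpedo, 34 of the 50 rose and 0 fell, where 6.38% of all tested genes rose and 5.99% fell. From torpedo to early bent, 31 rose and 0 fell, against 4.05% and 3.51% of all. These stages lie between others that the choice set low or high, so the rises follow in part from it. The median log2 change of the 50 was 3.65 in the first step and 2.28 in the second, and the medians over all tested genes were 0.00 and 0.06. The second count was lower without replicate 2 of the early bent embryo or without replicate 1 of the torpedo embryo. So was the count over all tested genes. Replicate 2 was the higher early bent library for 48 of the 50 genes.

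The largest changes came from genes that were at or near 0 in the lower group. Lcu.2RBY.6g055260 had 844 and 1001 normalized reads at torpedo and 0 and 1.10 at globular, a log2 change of 9.31 (SE 0.76, limma adjusted p = 1.81e-10). The globular value was 1 read, so the ratio of summed reads of 1628 had a 95% counting interval from 292 to 64325. Lcu.2RBY.4g006560 rose from 0 and 1.10 to 278 and 1386 in the same step (log2 change 8.74, SE 0.99, limma adjusted p = 1.33e-07).

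From torpedo to early bent, Lcu.2RBY.6g035140 went from 0 and 2.93 normalized reads to 3644 and 3481, with a log2 change of 10.81 (SE 0.70, limma adjusted p = 5.72e-12). Only 3 reads stood behind the torpedo value, and the ratio of 2251 had a 95% counting interval from 769.6 to 10917. Lcu.2RBY.7g031050 was at 0 in both torpedo libraries and at 1226 and 1458 at early bent, at least 419-fold higher by a floor of 3 reads per library (log2 change 10.39, SE 0.60, limma adjusted p = 4.38e-13). In both genes the early bent libraries lay far above every earlier embryo library.

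The whole seed gave the same stages in libraries that the choice had not used. It holds the embryo, however, so its results at heart, late bent and mature follow in part from the choice. From heart to late bent, 49 of the 50 genes rose and 0 fell, where 14.7% of all tested genes rose and 14.7% fell. The exception was Lcu.2RBY.5g023030, with 1714 and 1088 normalized reads at heart and 2316 and 2477 at late bent (log2 change 0.81, SE 0.48, limma adjusted p = 0.206). The median log2 change of the 50 was 10.04, and that of all tested genes was 0.00.

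Lcu.2RBY.2g055380 was at 0 in both heart whole seed libraries and at 99182 and 115257 at late bent, at least 55078-fold higher by the same floor (log2 change 16.71, SE 0.70, limma adjusted p = 1.74e-17). Lcu.2RBY.2g055420 went from 0 in both to 75878 and 97801, at least 44764-fold higher (log2 change 16.39, SE 0.87, limma adjusted p = 2e-15). Counted in normalized reads, both genes made nearly all of this rise in the final interval, though on the log2 scale part came earlier. At early bent they were at 27.7 and 34.4 and at 23.5 and 23.3 in the whole seed, so the step to late bent alone gave log2 changes of 11.71 (SE 0.70, limma adjusted p = 3.23e-13) and 11.79 (SE 0.87, limma adjusted p = 1.98e-11).

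From early to late bent, 44 of the 50 genes rose in the whole seed and 0 fell, against 7.84% and 10.3% of all tested genes, with a median log2 change of 3.35 (all genes -0.14). As over all tested genes, the count was lower without replicate 2 of the early bent whole seed. That library was the lower of its pair for 48 of the 50 genes, and the median of the 50 early bent whole seed means was 400.2 normalized reads. At late bent the whole seed mean was a median of 75.5% of the embryo mean, from 41.7% to 165%, and exceeded it for 9 genes. Across the 50 genes, late bent levels in whole seed and embryo had a Spearman correlation of 0.935, given as a description.

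The seed coat held far fewer reads of most of these genes. At late bent its mean was a median of 0.642% of the embryo mean, between 0.1 and 1% for 36 genes, between 1 and 10% for 8 and over 10% for 6. The lowest values were 0.104% for Lcu.2RBY.4g006560, with 3.67 and 32.6 normalized reads in seed coat against 17355 and 17645 in embryo, and 0.273% for Lcu.2RBY.1g005940. The late bent levels of the 50 genes in seed coat and embryo had a Spearman correlation of 0.284.

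**Figure D3:**
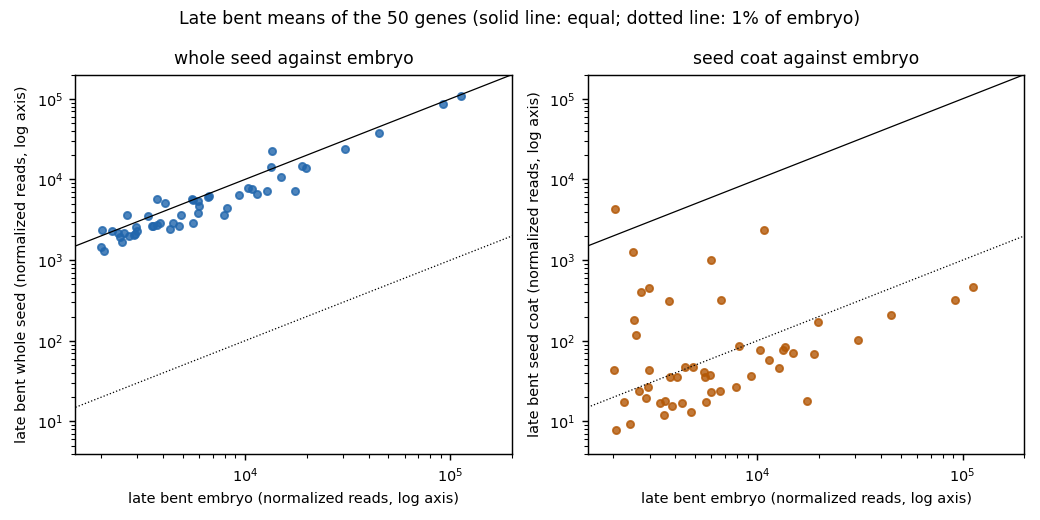
Late bent mean of each of the 50 genes in whole seed (left) and seed coat (right) against the embryo mean, all in normalized reads on log axes, with a solid line for equality and a dotted line for 1% of the embryo level. Whole seed points lie along the line of equality (median 75.5%), and most seed coat points lie below the dotted line (median 0.642%), with 6 genes over 10%.

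Embryo and seed coat were tested against each other at 2 stages that the choice had not used. The genes were chosen to be high in late bent embryo, with no limit on seed coat. An embryo excess at these stages may thus follow in part from the choice. At early bent, 44 of the 50 genes were higher in embryo than in seed coat and 1 was lower, where 13.8% of all tested genes were higher and 27.7% lower. The median log2 difference of the 50 was 5.26, and -0.46 over all genes. Lcu.2RBY.5g065690 had 7901 and 14486 normalized reads in embryo and 5.92 and 16.2 in seed coat, a log2 difference of 9.94 (SE 0.91, limma adjusted p = 2.44e-10). For Lcu.2RBY.7g031630 the seed coat libraries were at 9.30 and 46.8 (log2 difference 9.75, SE 1.01, limma adjusted p = 2.77e-09), and neither gene's tissues overlapped.

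At torpedo 29 of the 50 genes were higher in embryo and 9 lower, against 13.8% and 27.6% of all tested genes. The median log2 difference of the 50 was 3.16 (all genes -0.49). Lcu.2RBY.1g050730 had 1256 and 2046 normalized reads in embryo and 1.47 and 2.48 in seed coat (log2 difference 9.09, SE 0.70, limma adjusted p = 4.51e-12). Lcu.2RBY.6g038780 had 1326 and 2632 against 1.47 and 4.96 (log2 difference 8.93, SE 1.07, limma adjusted p = 8.78e-08). Some of the 9 lower genes had few reads, such as Lcu.2RBY.2g055380 with 0 and 4 in embryo and 15 and 4 in seed coat, which overlap. As over all tested genes, fewer were lower without replicate 2 of the torpedo seed coat. In that library 19.4% of genes were at 0, against 30.3% in its partner, and its part in the result was not tested beyond this.

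Late bent was used by the choice, but only in embryo, so whole seed and seed coat were compared there, with 48 of the 50 genes higher in whole seed and 0 lower, against 14.2% and 18.7% of all tested genes. The whole seed holds the embryo, which was chosen to be high at late bent, so this count follows in part from the choice. The median log2 difference was 7.12, and -0.36 over all genes. Lcu.2RBY.4g006560 had 11174 and 3425 normalized reads in whole seed (log2 difference 8.95, SE 0.99, limma adjusted p = 1.95e-08). Lcu.2RBY.7g031630 had 21943 and 23137 there, against 135 and 34.4 in seed coat (log2 difference 8.34, SE 1.01, limma adjusted p = 1.04e-07).

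The 2 genes not called were those with the highest seed coat share. Lcu.2RBY.7g055750 had 2070.4 and 1768 normalized reads in late bent whole seed and 1557 and 938 in seed coat (log2 difference 0.66, SE 0.62, limma adjusted p = 0.405), and its late bent seed coat mean was 50.3% of the embryo mean. Lcu.2RBY.5g023030 had 2316 and 2477 in whole seed against 3533 and 4977 in seed coat (log2 difference -0.81, SE 0.48, limma adjusted p = 0.186). In the first gene the whole seed libraries lay above both seed coat libraries, and in the second below both.

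Lcu.2RBY.5g023030 was the only member with more reads in seed coat than in embryo at late bent, where its embryo libraries held 2349 and 1709 and its seed coat mean was 209.7% of the embryo mean. At early bent it had 214 and 476 in embryo and 1137 and 1324 in seed coat, a log2 difference of -1.94 (SE 0.48, limma adjusted p = 0.00154), which became -1.36 with an adjusted p of 0.0583 without replicate 1 of the early bent embryo. At torpedo the embryo held 21.9 and 12.7 and the seed coat 1315 and 4494 (log2 difference -7.10, SE 0.48, limma adjusted p = 5.38e-13). Its highest group of all 25 was the mature seed coat, with 10899 and 4677.

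The other genes with more than 10% of the embryo level in late bent seed coat were Lcu.2RBY.5g046420 at 21.9%, Lcu.2RBY.7g059720 at 16.5%, Lcu.2RBY.6g053040 at 15.3% and Lcu.2RBY.7g068680 at 15.03%. At torpedo Lcu.2RBY.7g059720 had 88.7 and 69.4 normalized reads in embryo and 282 and 1229.9 in seed coat (log2 difference -2.89, SE 0.45, limma adjusted p = 4.46e-06). The seed coat was the higher tissue in both its libraries, although they differed several-fold from each other.

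Within the seed coat the genes also rose, from a far lower level. From heart to late bent 41 of the 50 rose and 1 fell, against 19.4% and 16.3% of all tested genes, with a median log2 change of 3.56 (all genes 0.31). The genes were chosen by their embryo levels at these same stages. Whether embryo material in the seed coat samples added to the rises was not tested. Lcu.2RBY.5g046420 went from 1.18 and 7.32 normalized reads to 2942 and 1812 (log2 change 9.08, SE 0.53, limma adjusted p = 2.02e-14). Lcu.2RBY.2g055380 went from 0 and 0.814, which is 1 read, to 440.4 and 479 (log2 change 8.42, SE 0.70, limma adjusted p = 2.42e-11), and its ratio of 1352 had a 95% counting interval from 242 to 53473. These late values compare with 112744 in the embryo, 0.408% of it in seed coat.

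The gene that fell was Lcu.2RBY.3g067940, from 159 and 135 normalized reads in heart seed coat to 33.03 and 14.9 at late bent (log2 change -2.66, SE 0.59, limma adjusted p = 0.000373). It was between 113 and 187 in the seed coat from zygote to heart. In the embryo it ran the opposite way, from 2.80 and 2.86 at heart to 3684 and 1672 at late bent.

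From early to late bent 21 of the 50 genes rose in the seed coat and 0 fell, where 8.61% of all tested genes rose and 10.9% fell, with a median log2 change of 1.64 (all genes -0.20). The count was lower without replicate 1 of the early bent seed coat or without replicate 2 of the late bent seed coat. So was the count over all tested genes. Replicate 2 of the early bent seed coat, with 13.9% of genes at 0, was the higher library of its pair for 41 of the 50 genes. Lcu.2RBY.2g055420 rose from 6.77 and 21.01 to 252 and 385 (log2 change 4.58, SE 0.87, limma adjusted p = 0.000158). Lcu.2RBY.2g059730 rose from 3.38 and 18.1 to 234 and 183 (log2 change 4.51, SE 0.84, limma adjusted p = 0.000144). Their late bent embryo means were 91911 and 45037, and the part of embryo material in their seed coat reads was not tested.

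The last step, from late bent to mature, divided the genes. In the embryo, whose values chose the members, the mature mean was a median of 41.2% of late bent, below 1% for 2 genes, 1 to 10% for 4, 10 to 50% for 22 and over 50% for 22. Lcu.2RBY.3g067940 went from 3684 and 1672 normalized reads to 3.33 and 3.37, the lowest share at 0.125%. Lcu.2RBY.2g070250 went from 3952 and 2818 to 6.65 and 21.9, or 0.422%. Lcu.2RBY.2g089080 and Lcu.2RBY.2g078350 kept the most, 88.8% and 87.8%.

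In the whole seed 7 of the 50 genes fell in this step and 0 rose, against 7.72% and 7.75% of all tested genes. The median log2 change of the 50 was -0.33 (all genes 0.00). The 7 were Lcu.2RBY.7g031630, Lcu.2RBY.1g059070, Lcu.2RBY.2g070250, Lcu.2RBY.6g053040, Lcu.2RBY.7g068680, Lcu.2RBY.3g067940 and Lcu.2RBY.2g040660. The count was lower without either replicate of the late bent whole seed and without either replicate of the mature whole seed. The count of falls over all tested genes was lower too, except without replicate 2 of the mature whole seed, where it was higher. Replicate 2 was the higher mature whole seed library for 47 of the 50 genes.

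Lcu.2RBY.3g067940 had 3884 and 3390.1 normalized reads in late bent whole seed and 3.44 and 8.59 at mature, a log2 change of -9.12 (SE 0.59, limma adjusted p = 2.1e-12). Lcu.2RBY.2g070250 had 3725 and 3320.0 and then 8.598 and 47.2 (log2 change -7.35, SE 1.01, limma adjusted p = 2.68e-06). Both mature libraries lay far below both late bent ones, as in the embryo. Across the 50 genes, the mature level relative to late bent had a Spearman correlation of 0.756 between embryo and whole seed, given as a description.

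Most of the genes were still abundant in the mature whole seed. Its mean was above the late bent whole seed mean for 21 genes, with a median of 80.3%, and the mature whole seed was the highest of all 25 groups for 15. Both counts rested on replicate 2, since with replicate 1 alone they were 12 and 4, and the median was 65.7%. Lcu.2RBY.4g006560 had 17879 and 10946 normalized reads in mature embryo and 22406 and 39723 in mature whole seed. Lcu.2RBY.4g065160, with 9065 and 17828 in late bent embryo, had 2952 and 588 in mature embryo and 10245 and 33391 in mature whole seed. The mature whole seed mean exceeded the mature embryo mean for 40 genes, and its median over all 50 was 153% of the embryo mean, against 32 genes and 116% with replicate 1 alone.

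**Figure D4:**
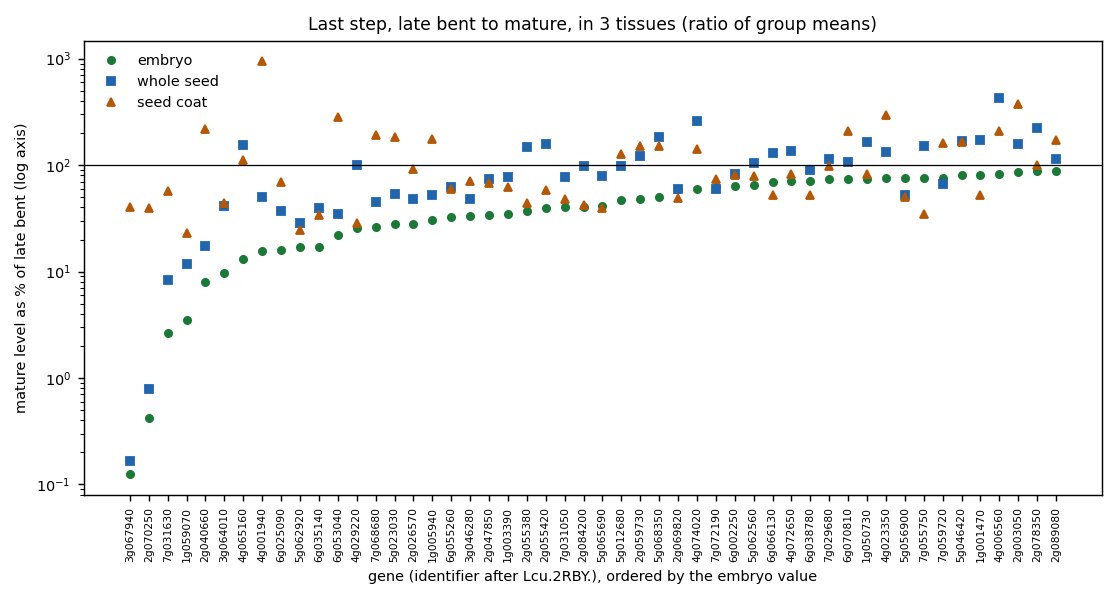
Mature mean as a percentage of the late bent mean (log axis) for each of the 50 genes, ordered by the embryo value, in embryo, whole seed and seed coat, with a line at 100%. Embryo medians 41.2% and whole seed medians 80.3% fall together to below 1% for Lcu.2RBY.3g067940 and Lcu.2RBY.2g070250 at the left.

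In the seed coat the last step had 1 gene higher and 0 lower, where 4.17% of all tested genes rose and 4.68% fell. Under quantile scaling the counts were 1 and 4. The median log2 change of the 50 was -0.41 (all genes 0.19). Lcu.2RBY.4g001940 rose from 153 and 213 normalized reads to 1686 and 1765 (log2 change 3.25, SE 0.71, limma adjusted p = 0.00211). Its embryo means went from 2526 at late bent to 397 at mature, and its mature seed coat libraries stood above both mature embryo libraries, which held 552 and 243.

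The difference between whole seed and seed coat in this step was tested as an interaction. For 6 genes the whole seed change was lower than the seed coat change and for 0 higher, against 3.97% and 4.36% of all tested genes. For 2 of the 6 the seed coat level bounded the result. Lcu.2RBY.3g067940 had 33.03 and 14.9 normalized reads in late bent seed coat and 6.41 and 13.1 at mature, and a fall to 0 there would have been a log2 change of -4.54, against -9.12 in whole seed. Lcu.2RBY.2g070250 had 19.6 and 13.97 and then 3.56 and 9.80, and a fall to 0 would have been -4.13, against -7.35. Their interaction values of -7.93 (SE 0.83) and -6.03 (SE 1.43) therefore do not show that the tissues differed, since the seed coat could not have fallen as far.

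For the other four the seed coat had room to fall as far as the whole seed did. Lcu.2RBY.6g053040 went from 417 and 490 normalized reads to 1554 and 1011 in seed coat while it went from 2490 and 2627 to 753 and 1005 in whole seed. Lcu.2RBY.7g068680, Lcu.2RBY.2g040660 and Lcu.2RBY.4g001940 had interaction log2 values of -2.08, -3.68 and -4.27, with limma adjusted p-values of 0.00957, 0.00162 and 0.00583. For these genes the mature seed coat mean was above the late bent seed coat mean.

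**Figure D5:**
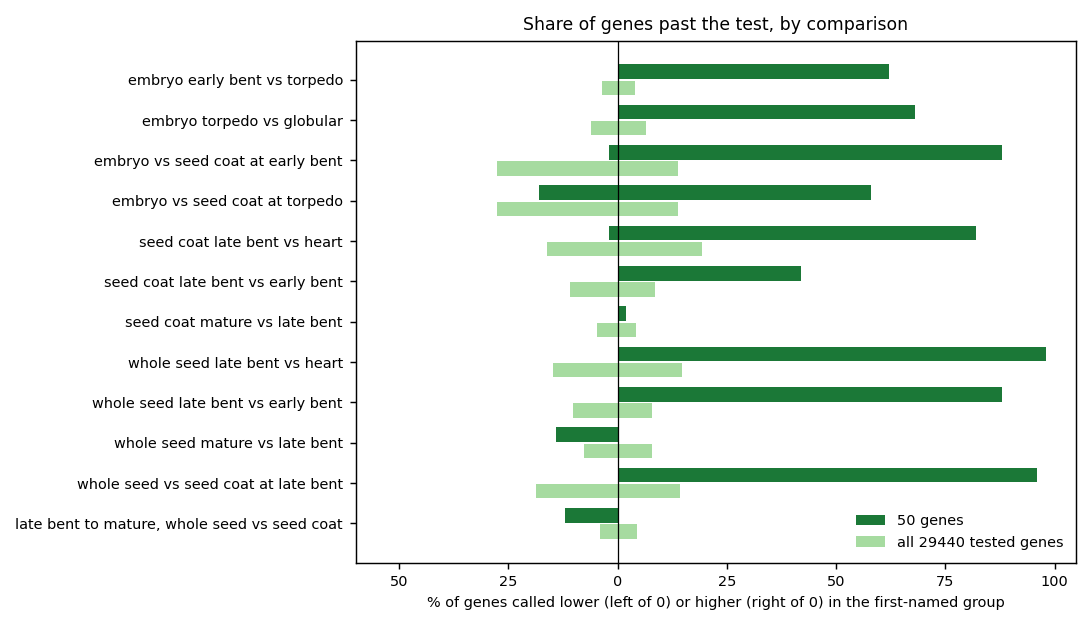
Percentage of the 50 genes (dark bars) and of all 29440 tested genes (pale bars) called higher (right of 0) or lower (left of 0) in the first-named group of each of the 12 comparisons. The largest member bar is whole seed late bent against heart, 49 of 50 genes higher, and the last steps have the shortest, 1 and 0 higher.

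By identifier, the genes were spread over the 7 chromosome parts of the names, with 5 in part 1, 12 in part 2, 3 in part 3, 7 in part 4, 8 in part 5, 8 in part 6 and 7 in part 7. Part 2 held 24% of the members and 16.8% of all identifiers. A single pair, Lcu.2RBY.2g055380 and Lcu.2RBY.2g055420, had numbers within 100 of each other, 40 apart. Lcu.2RBY.2g055360, whose number lies next to theirs, failed the zygote limit with a mean of 218 normalized reads and otherwise ran like them, from 74.0 at early bent to 294782 at late bent and 113384 at mature. The identifiers between these 3 had late bent embryo means of at most 108. Whether these identifiers are near-identical copies that share reads was not tested.

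At the zygote stage, where the rule capped the mean at 100, the median of the 50 means was 31.5 normalized reads in embryo but 1.42 in seed coat and 1.85 in whole seed. The 2 most abundant of them show this. Lcu.2RBY.2g055380 had 134 and 30.99 in zygote stage embryo and 0 in both libraries of seed coat and of whole seed. Lcu.2RBY.2g055420 had 129 and 24.3 in embryo, and at most 0.657 in the other tissues. Replicate 1 was the higher zygote embryo library in both, and replicate 2 exceeded it for 10 of the 50 genes.

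The level at the zygote stage was small against that at late bent. It was a median of 0.386% of the late bent mean over the 50 genes, against 0.208% at quadrant, 0.0783% at globular and 0.301% at heart. For the 27 genes with a late bent mean of at least 100000 in the 50 and the 108 together, the medians were 0.0798% at zygote, 0.101% at quadrant, 0.00312% at globular and 0.00973% at heart.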

How the data were processed

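Per the labels' protocols, embryo and seed coat were dissected by hand and RNA-seq libraries came from a low-input kit. DESeq2, featureCounts, Trimmomatic and CASAVA are named by the submitters' processing notes, with neither version nor role. The sources used here do not name the aligner or the genome build.

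The deposited table holds a signal value for each gene in each library: the authors divided read counts by 1 factor per library. Every value was a whole multiple of its library's smallest step within 0.001 reads (100% of values), so reads were recovered. Values are called normalized reads. Replicates differed by more than sampling noise, with a mean chi-square per gene of at least 12.4 in each pair.

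The test was limma 3.58.1 (R 4.3.3, trend and robust) on log2(normalized reads + 1), with 1 coefficient per group, over the 29440 genes that reached 10 normalized reads in 2 or more libraries. Fold changes on this scale understate changes of low genes. Floors (3 reads per library) and 95% intervals cover counting error only. Python 3.11.15 did the rest, and the fits were tested on simulated data. Genes named are the 10 highest by late bent embryo mean, for each comparison the 2 called with the largest change in each direction whose libraries do not overlap (a condition not set for the interaction), and the 2 highest and 2 lowest by early bent, mature and seed coat percentage. Genes at the limits of the rule, the genes of small counts and the neighbouring identifiers were named after their values were seen. The 50 genes, lists and comparisons were chosen with earlier results of these data known.

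Alternatives were a pseudocount of 8, no filter, a filter of 50, no fold required, TMM and quantile scaling, a replicate block, only the tissues compared, each replicate left out, and edgeR 4.0.16 and DESeq2 1.42.0 on the recovered reads. Scaling by total reads, and leaving out the 6 libraries with under 25% of genes at 0, were added after seeing the data.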

Additional observations from a re-analysis of the deposited data

Results flagged for a closer look

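For 6 of the 50 genes the change from late bent to mature was lower in whole seed than in seed coat by a test of the interaction. It was higher for 0, against 3.97% lower and 4.36% higher over all tested genes. The log2 values furthest from 0 were -7.93 for Lcu.2RBY.3g067940 and -6.03 for Lcu.2RBY.2g070250, but these follow in part from low seed coat levels: a fall to 0 there would have been a log2 change of -4.54 and -4.13, against -9.12 and -7.35 in whole seed. For these 2 genes no tissue difference is shown, and for the other four the seed coat could have fallen as far as the whole seed.

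The unfertilized ovule entered no comparison, and 10 of the 50 genes had a mean of at least 100 normalized reads in it. They were Lcu.2RBY.6g070810, Lcu.2RBY.3g064010, Lcu.2RBY.2g069820, Lcu.2RBY.2g003050, Lcu.2RBY.6g053040, Lcu.2RBY.7g068680, Lcu.2RBY.3g067940, Lcu.2RBY.7g055750, Lcu.2RBY.2g026570 and Lcu.2RBY.5g023030. The highest was Lcu.2RBY.2g026570 with 772 and 782 normalized reads, and its mean was 12.3 in zygote stage embryo. Both ovule libraries are among the 6 with under 25% of genes at 0. The share of all genes that reached 100 there was not computed, so the count shows nothing particular to the 50 genes.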

How the results depend on the processing

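Of 392 counts of called members recomputed under the alternatives, 368 were within 1.5 times the reported count, and of 440 alternative fits of the 27 named tests 438 kept their call, 2 lost it and 0 reversed. Several reported counts were 0, and an alternative count of 0 was then taken as within that range, so part of the 368 is 0 against 0. The 27 named tests were picked for large log2 changes and say little about the other called genes. The cause of the changes was not tested. Over the 12 comparisons edgeR called 1956 to 11372 of all genes and limma 2226 to 12204. For the rises given next, every fit with a replicate left out also called fewer of all tested genes. For the falls and tissue differences given next, most such fits did. How much of each range was particular to the 50 genes was not tested. Leaving out each replicate in turn gave 17 to 30 genes higher from torpedo to early bent in embryo, 10 to 20 higher from early to late bent in seed coat, 28 to 44 higher in that step in whole seed, and 3 to 5 lower from late bent to mature in whole seed. Lower in embryo than in seed coat were 0 to 1 at early bent and 5 to 8 at torpedo.

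From globular to torpedo 1 gene was lower with only the tissues compared. From late bent to mature in seed coat, 3 were higher with a pseudocount of 8, with total reads scaling, with DESeq2 and when the 6 libraries with under 25% of genes at 0 were left out, and 2 with only the tissues compared and with edgeR. In the same step 1 was lower with a pseudocount of 8 and with DESeq2, and 4 with quantile scaling. In whole seed 2 were higher with a pseudocount of 8, and 1 with only the tissues compared and with edgeR. With total reads scaling 1 gene was lower in whole seed than in seed coat at late bent.

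Same-numbered libraries of different groups share only a replicate number (their deviations had correlations over 0.1 in 59 of 300 group pairs). With a replicate block the counts were as reported but for 40 higher from heart to late bent in seed coat and 43 higher from early to late bent in whole seed.

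Scaling moved the median log2 change of all genes by -0.21 to 0.17 (TMM), -0.26 to 0.57 (quantile) and -1.53 to 0.27 (total reads). Of all called genes, 33.2% were higher in embryo than in seed coat at early bent, 54.3% with quantile and 16.4% with total reads scaling. At torpedo these were 33.3%, 54.5% and 22.0%. With total reads scaling the share changed from 53.5% to 20.7% from torpedo to early bent and from 51.6% to 65.8% from globular to torpedo in embryo. In seed coat it changed from 54.4% to 35.9% (heart to late bent), from 44.1% to 23.6% (early to late bent) and from 47.2% to 60.7% (late bent to mature). In whole seed it changed from 50.05% to 10.4% (heart to late bent) and from 43.2% to 6.40% (early to late bent), and from 43.1% to 16.3% in whole seed against seed coat. Values of under about 3 reads are limited by depth.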
